A study of Mus musculus with 60 samples.

Results

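The cytosolic ribosomal protein genes are the genes that encode the protein subunits of the ribosome outside mitochondria. They were taken here as the probes whose RefSeq accession named a gene with the symbol pattern of a large-subunit (Rpl), small-subunit (Rps) or stalk (Rplp) protein or Rpsa, without pseudogenes and the Rps6k kinases, and the brightest probe stood for each gene. The rule gave 81 of the 20018 genes with a symbol on the array, measured by 168 probes. They were 43 large-subunit genes, 29 small-subunit genes, 3 stalk genes and 6 paralogs of a core gene (Rpl3l, Rpl10l, Rpl36al, Rpl39l, Rps4l and Rps27l).

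The samples were 60 two-colour Agilent arrays of lung, liver and forestomach from 20 male Muta Mouse animals aged about 10 weeks, a transgenic strain that carries a bacterial reporter used for mutation assays. All animals were gavaged daily for 28 days. The vehicle controls (D0) received olive oil alone, and the other groups received benzo(ghi)perylene, a polycyclic aromatic hydrocarbon, in olive oil at 6.25 (D1), 12.5 (D2) or 25 (D3) mg/kg-bw/day, with 5 mice per group and tissues collected 72 h after the last dose. Tissue RNA carried Cy5 and a universal mouse reference RNA pooled from cell lines carried Cy3, with no dye swap, so each value below is a log2 ratio of tissue to the same reference, with 0 set by the loess trend of the array at that brightness. RNA came from random tissue sections. In such bulk RNA fewer cells of a type and less RNA per cell cannot be told apart.

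Ribosomal proteins are made in near equal amounts and assemble with ribosomal RNA in the nucleolus into the small subunit, which decodes the message, and the large subunit, which forms the peptide bond. Their mRNAs are among the most abundant in a cell and typically begin with a terminal oligopyrimidine (TOP) tract, a C followed by an unbroken run of C and T at the transcription start, through which mTORC1 signalling controls their translation as a group. Several members act outside the ribosome. Rpl5 and Rpl11 bind Mdm2, the inhibitor of p53, and Rps27l is a known p53 target.

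The starts of a few of these genes are shown to set core genes with large tissue differences, 2 core genes beside their paralogs, and Rps6, chosen for its role in mTORC1 signalling, against the TOP tract. RefSeq promoters (GRCm38.p6) held 55 of the 75 core members and 5 of the 6 paralogs. Each line gives 30 bases before and 20 bases from the annotated start on, 5′ to 3′ on the gene's strand, with capitals for a C that lay within 5 bases of the start together with the C and T that followed it without a break (at least 4). Where a gene had several annotated starts, as for Rps24 and Rps27l, the first listed is printed.
Rps12 (chr10:23787190-23787239, minus strand): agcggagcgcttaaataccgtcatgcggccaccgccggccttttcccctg
Rpl31 (chr1:39367821-39367870, plus strand): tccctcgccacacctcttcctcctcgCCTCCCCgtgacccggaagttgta
Rps24 (chr14:24490648-24490697, plus strand): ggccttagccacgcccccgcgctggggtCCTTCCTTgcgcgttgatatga
Rps6 (chr4:86857348-86857397, minus strand): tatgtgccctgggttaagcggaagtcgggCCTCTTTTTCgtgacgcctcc
Rps27 (chr3:90213629-90213678, minus strand): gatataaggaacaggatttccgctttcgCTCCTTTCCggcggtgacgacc
Rps27l (chr9:66946056-66946105, plus strand): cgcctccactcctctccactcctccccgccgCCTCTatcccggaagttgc
Rpl36a (chrX:134585624-134585673, plus strand): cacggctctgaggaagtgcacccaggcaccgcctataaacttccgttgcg
Rpl36al (chr12:69184048-69184097, minus strand): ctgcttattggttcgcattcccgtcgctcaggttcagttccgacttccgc

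Such a tract stood at an annotated start of 26 of the 55 core members (47.3%) and of 5718 of the 27025 genes in the promoter table (21.2%). In Rps6, which encodes the small-subunit protein phosphorylated downstream of mTORC1, the tract ran for 10 bases. Rps12 had no such C within 5 bases of its annotated start, although a run of C and T stands further on in the printed line. The 7 letters CCGGAAG, a core of ETS-family binding sites, stood on either strand in the 300-base promoter of 23 core members (41.8%) against 9.93% of all genes, the E-box CACGTG in 10.9% against 8.09%, and TATAAA in 10.9% against 15.7%. A match describes the sequence alone, and overlaps between these motifs and the tract were not removed.

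Almost every member was measured in every tissue. Between 77 and 80 of the 81 members were well above background in Cy5 on each array, while 21.3% to 58.6% of all probes were. By the filter used for testing, Cy5 well above background on at least 5 of the 20 arrays of a tissue, 79 members were tested in lung and 78 each in liver and forestomach. Rpl10l and Rpl39l were tested in none, and Rpl3l only in lung. The members were also among the brightest probes of the array. Their median mean log2 signal was 16.0, against 7.52 for all tested probes, and 99.3% of the tested probes were dimmer than that median. Each member was represented by its brightest probe, and no such choice was made among all probes. These levels and the shares well above background are therefore not compared like for like.

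The tissue labels matched their defining markers. Sftpc, a surfactant protein of lung, was at 8.13 to 8.89 on the 20 lung arrays, Alb (albumin) at 6.58 to 7.90 on the liver arrays and Krt13, a keratin of squamous epithelium, at 4.76 to 6.31 on the forestomach arrays. On some arrays markers of another tissue were high. The lung of D0 mouse 1 had Krt13 at 5.53 against -2.89 to -1.07 on the other 19 lung arrays, and the mean of 8 skeletal muscle markers at 4.85 against -0.947 to 0.503. The lung of D3 mouse 20 had Alb at 5.08 against 0.0786 to 0.914. On the forestomach arrays, Apoa1 of liver lay above a log2 ratio of 2 on 12 of 20, Alb on 8 of 20, the airway marker Scgb1a1 on 20 of 20 (3.01 to 6.26) and Sftpc on 3 of 20, with its highest, 7.57, in D0 mouse 2. Without D0 mouse 1, 65 members were called between lung and liver and 16 between lung and forestomach, beside 67 and 17 with all mice.

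The median over the 81 members was lowest in liver. On the 20 liver arrays it lay between -1.33 and -0.903, on the lung arrays between -0.234 and 0.00709 and on the forestomach arrays between -0.0415 and 0.363, so that no liver array overlapped with an array of another tissue. Among the tested members at D0 the highest means were those of Rps4l (3.39), Rps27 (1.27) and Rps14 (1.04) in lung, Rps4l (4.48), Rpl36al (0.84) and Rps27l (0.84) in liver, and Rps4l (3.00), Rps2 (1.497) and Rps14 (1.41) in forestomach. The lowest were those of Rpl15 (-1.06), Rps3 (-1.04) and Rpl5 (-1.02) in lung, Rps19 (-1.95), Rpl36a (-1.88) and Rps4x (-1.82) in liver, and Rpl36a (-0.73), Rpl30 (-0.70) and Rps4x (-0.60) in forestomach. Over the members' medians, the 5 mice at D0 gave means of -1.03 ± 0.0952 in liver, -0.0918 ± 0.0562 in lung and 0.230 ± 0.0678 in forestomach (SD, n = 5). These ratios were set by a loess fit within each array, and the order of liver below the other tissues rested on it, as described below.

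**Figure D1:**
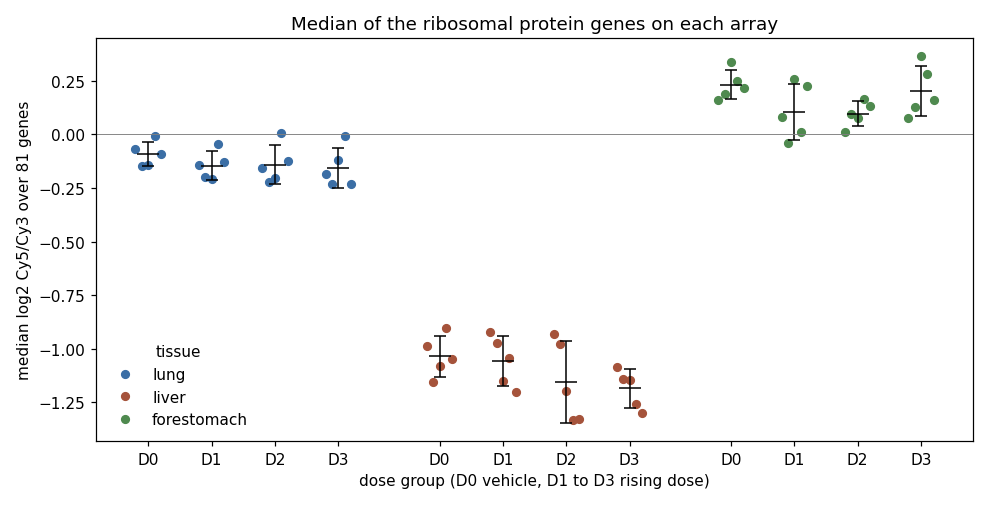
Median log2 ratio of tissue (Cy5) to reference (Cy3) over the 81 ribosomal protein genes on each of the 60 arrays, by tissue and dose group, with black bars for the mean and SD of 5 mice. The liver arrays lay between -1.33 and -0.903, below every lung and forestomach array under the loess scaling.

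At D0 most members were higher in lung and in forestomach than in liver under the loess scaling. Between lung and liver, 64 of the 79 members tested were called higher in lung and 3 lower (limma, adjusted p of 0.05 or less over 33255 probes and at least 1.5-fold), beside 25.4% and 19% of all probes. The median difference was 1.02 on the log2 scale, against 0.0631 over all probes. Between forestomach and liver, 73 members were called higher and 2 lower, beside 21% and 18.2% of all probes, with a median difference of 1.27 against 0.0199. The 5 lung mice lay above the 5 liver mice without overlap in 66 members, beside 28.1% of all probes, and the forestomach mice above the liver mice in 72, beside 19.3%. With loess the calls of members lower outside liver were all of paralogs. In other scalings a core gene was called lower too: Rps2 in lung with the processed signals (-1.24), the deposited ratios (-0.66) and median centring (-1.24), and Rpl10 in forestomach with the processed signals (-0.83).

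Members of every structural class were among the calls. Of the large-subunit genes 35 of 43 were called higher in lung than in liver, with a median of 1.02, of the small-subunit genes 25 of 29, with a median of 1.05, and of the stalk genes all 3. The largest difference was that of Rps27, a zinc finger protein of the small subunit. It stood at 1.17, 1.32, 1.55, 1.20 and 1.10 in the lungs of D0 mice 1 to 5, at -0.49, -0.84, -0.63, -0.64 and -0.46 in their livers, and at 0.93, 1.39, 1.21, 1.00 and 0.68 in their forestomachs. Lung and forestomach overlapped and liver lay apart, with a lung-minus-liver difference of 1.88 ± 0.11 (SE, limma adjusted p = 2.92e-21).

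Rps12, a small-subunit protein, followed at 1.76 ± 0.12 (limma adjusted p = 1.96e-19) and had the largest difference of forestomach from liver, 2.17 ± 0.12 (limma adjusted p = 4.61e-23). Its log2 ratio was -1.90 to -1.56 in the livers, -0.09 to 0.26 in the lungs and 0.29 to 0.71 in the forestomachs of the D0 mice, 3 ranges without overlap. Rps19, a small-subunit protein needed for maturation of its ribosomal RNA and mutated in Diamond-Blackfan anaemia, was 1.62 ± 0.13 higher in lung than in liver (limma adjusted p = 9.11e-16). After Rps12, the largest differences of forestomach from liver were those of Rpl12 and Rpl31 of the large subunit, at 1.95 each.

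The stalk proteins Rplp0, Rplp1 and Rplp2, which recruit elongation factors to the large subunit, were 1.22, 0.79 and 1.48 higher in lung than in liver. Rpsa, the laminin receptor and small-subunit protein, was 1.11 higher, Rps6 0.78 higher and Rps27a, which is made as a fusion with ubiquitin, 0.91 higher, all of them called with loess. With median centring the difference was -0.0271 for Rplp0, -0.340 for Rplp1, -0.0562 for Rpsa, -0.298 for Rps6 and -0.196 for Rps27a, and with the processed signals -0.0241 for Rplp1 and -0.0387 for Rpsa. Rpl11 was 1.25 ± 0.14 higher in lung and 1.62 ± 0.14 higher in forestomach than in liver. Rpl5, which binds 5S ribosomal RNA together with Rpl11, was 0.51 ± 0.18 higher in lung than in liver (limma adjusted p = 0.0130), short of 1.5-fold, and 0.98 ± 0.18 higher in forestomach, which was called. With median centring these were -0.0945 and -0.154.

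**Figure D2:**
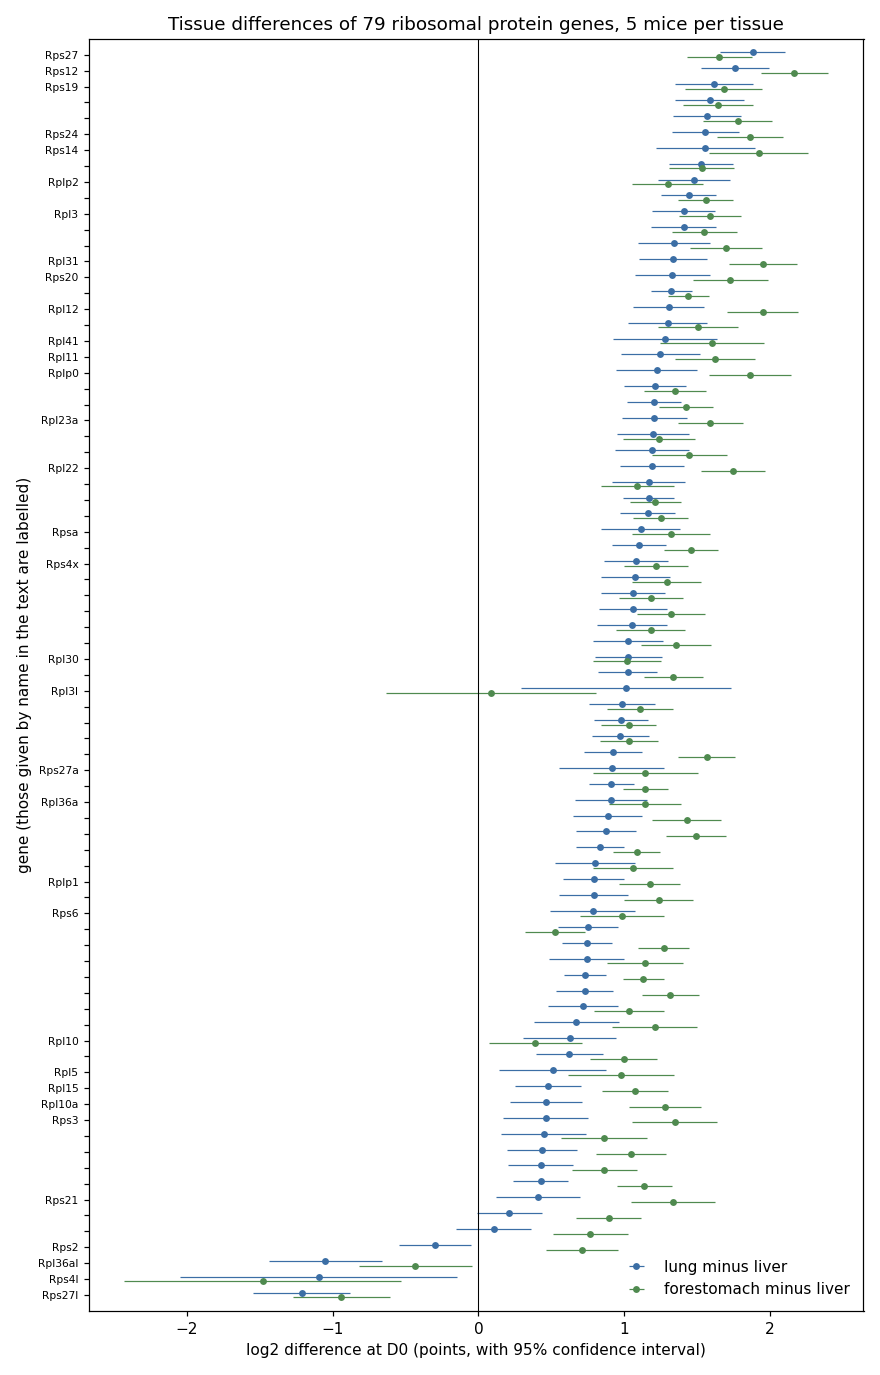
Log2 difference at D0 of lung minus liver (blue) and forestomach minus liver (green) for the 79 tested ribosomal protein genes under the loess scaling, as points with 95% confidence intervals from the limma fit, 5 mice per tissue, with labels for the genes given by name. Most genes lay to the right of 0, up to 1.88 (Rps27) for lung and 2.17 (Rps12) for forestomach, and Rps27l, Rps4l and Rpl36al lay to the left for both differences. Without loess the medians of both differences came close to 0.

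The size of these differences depended on how the arrays were scaled. The median lung-minus-liver difference of the members was 1.02 with loess, 1.16 with normexp background correction and loess, 0.599 in the deposited log2 ratios, 0.281 in the scanner program's processed signals and -0.0243 with median centring alone, where all tested probes shifted to 0.144. For forestomach minus liver the medians in the same order were 1.27, 1.38, 0.725, 0.409 and 0.0448. Calls of members as higher in lung than in liver fell from 64 with loess to 42, 17 and 1 in the last 3 scalings, beside 4, 4 and 3 as lower. The shares of all probes called higher in lung there were 24.1%, 32% and 21.3%, and lower 20.2%, 28.7% and 12.8%. The 1 call left as higher with median centring was that of Rpl3l, which was tested through lung alone, and no core gene was called higher. In forestomach against liver they fell from 73 higher and 2 lower to 57 and 2, 24 and 3, and with median centring none higher and 3 lower, which were Rps27l, Rpl36al and Rps4l, beside 20.7%, 26% and 9.23% of all probes higher and 18.2%, 30% and 22.6% lower. Across all 5 scalings 36 of 79 members stayed higher in lung than in liver, and 43 stayed higher in forestomach than in liver. In neither comparison was a member called higher in every scaling. The share of all probes that kept 1 direction was not computed.

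Other bright probes also differed between the tissues. Between the quartiles of the members' brightness lay 43 other named genes, such as Actg1, Gapdh and Hspa8, and several of them were near-identical histone H2a genes. Their median lung-minus-liver difference was 1.02 with loess, with quartiles of -0.507 and 1.38, the same as the members' median, and it moved with the scaling as theirs did. The members differed from them by 0.000420 with loess and by -0.00439 to 0.129 in the other 4 scalings. For forestomach minus liver the bright genes had a median of 0.181, so that the members stood 1.09 above them with loess and 0.995 to 1.11 above them in the other 4. The members' lung-minus-forestomach median stood 0.288 below that of the bright genes with loess and 0.208 to 0.288 below it in the others. A further 210 probes between the same quartiles had no symbol, and whether copies of ribosomal protein genes are among them was not tested. Their medians with loess were 0.811 for lung minus liver, 1.05 for forestomach minus liver and -0.311 for lung minus forestomach. The members stood 0.212 and 0.218 above them in the comparisons with liver, with 0.143 to 0.214 and 0.180 to 0.228 in the other 4 scalings, and 0.00625 above them between lung and forestomach, with 0.0109 to 0.0539 in the others. The distance of the members from signal of like brightness thus depended on which probes were taken. The part of brightness in the tissue differences was not tested further.

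**Figure D3:**
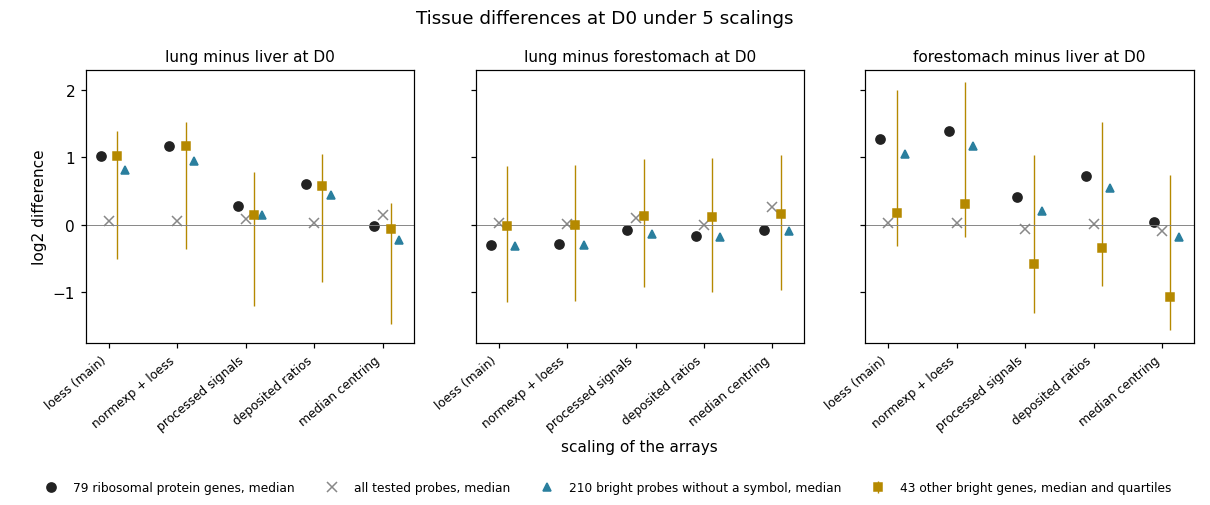
Median log2 difference between tissues at D0 for 79 ribosomal protein genes (black circles), 43 other named genes of like brightness (ochre squares, with quartiles), 210 probes of like brightness without a symbol (blue triangles) and all tested probes (grey crosses) under 5 scalings of the arrays. The black circles moved between -0.0243 and 1.16 for lung minus liver along with the squares, and for forestomach minus liver they stayed 0.995 to 1.11 above the squares and 0.180 to 0.228 above the triangles.

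Lung and forestomach were closer to each other. Of the 79 members 16 were called lower in lung and 1 higher, beside 14.5% and 18.8% of all probes, with a median difference of -0.305 against 0.0232 over all probes. In 23 members every lung value of D0 lay below every forestomach value, beside 11.4% of all probes. Rps2, a small-subunit protein, stood furthest down at -1.01 ± 0.12 (limma adjusted p = 1.14e-09). It was at 0.97, 0.53, 0.55, 0.21 and 0.18 in the lungs of mice 1 to 5, at 1.54, 1.70, 1.62, 1.20 and 1.43 in the forestomachs and at 0.94, 0.71, 0.53, 0.89 and 0.87 in the livers. Lung and liver thus overlapped for Rps2 while forestomach lay above both, and with loess Rps2 was the one core gene with a lung mean below its liver mean (-0.30 ± 0.12, short of 1.5-fold). Of the 75 core genes 13 lay so with the processed signals, 5 in the deposited ratios and 40 with median centring. Rps21 (-0.93), Rps3 (-0.89), which also has a role in DNA repair, and Rpl10a (-0.82) followed. With median centring no member was called between lung and forestomach, beside 26.5% of all probes higher and 3.41% lower. With the processed signals 8 were (1 higher and 7 lower), beside 26.5% and 18.9% of all probes. In the deposited ratios 8 were also called (1 and 7), beside 17.6% and 15.4%. With loess and without D0 mouse 4 it was 11.

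Of the 4 paralogs tested, Rps27l, Rpl36al and Rps4l were lower in lung than in liver while Rps27, Rpl36a and Rps4x were higher, and Rpl3l was higher, as was Rpl3. Rps27l, which differs from Rps27 in a few residues, stood at -0.52, -0.41, -0.39, -0.17 and -0.37 in the lungs of D0 mice 1 to 5 and at 0.98, 0.47, 0.90, 0.90 and 0.94 in their livers, without overlap. It was 1.21 ± 0.17 lower in lung than in liver (limma adjusted p = 7.48e-09) and 0.94 ± 0.17 lower in forestomach (limma adjusted p = 2.5e-06), where Rps27 was 1.65 higher. Both differences were called in each of the 5 scalings, from -1.96 to -1.09 for lung and from -2.13 to -0.822 for forestomach, while Rps27 ranged from 0.721 to 2.03 and from 0.382 to 1.78. A difference in the same direction was seen for Rpl36al, a retrotransposed copy of Rpl36a. It lay between 0.80 and 0.92 in the 5 livers and between -0.75 and 0.14 in the lungs, a difference of -1.05 ± 0.19 (limma adjusted p = 4.51e-06) that was also called in each scaling, from -1.57 to -0.913. Rpl36a itself was 0.91 ± 0.12 higher in lung, with 0.0951 to 1.01 over the scalings.

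In the forestomach Rpl36al was uneven, at 0.68, -0.30, -0.35, 1.22 and 0.80 in D0 mice 1 to 5, and its difference from liver (-0.43 ± 0.19) was not called (limma adjusted p = 0.0504). Rps4l was far above the reference in every tissue, but its probe was dim (mean log2 signal 7.59), the reference was well above background on 33 of 60 arrays, and its RefSeq record is of a non-coding RNA. Its values were 4.18, 3.93, 4.55, 4.69 and 5.06 in the livers, 3.32, 2.93, 2.25, 3.92 and 4.50 in the lungs and 3.28, 2.63, 1.07, 4.06 and 3.98 in the forestomachs of D0 mice 1 to 5, so the groups overlapped. Its core gene Rps4x, on the X chromosome, stood at -1.98 to -1.68 in liver and at -1.002 to -0.58 in lung. The forestomach-minus-liver difference of Rps4l was -1.48 ± 0.47 (limma adjusted p = 0.00638) and called in each scaling, though not without D0 mouse 3 (-0.98, limma adjusted p = 0.0842), while its lung-minus-liver difference of -1.10 ± 0.47 (limma adjusted p = 0.0391) lost its call with normexp, with median centring, with no filter and when any of D0 mice 1 to 4 was left out.

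Rpl3l, the form of Rpl3 found in striated muscle, was well above background on 6 of the 20 lung arrays and on none of liver or forestomach. It was at 4.42 in the lung of D0 mouse 1 and at 0.08, -0.24, 0.02 and 0.37 in those of mice 2 to 5. That lung also had the highest value of all 20 for each of the 8 skeletal muscle markers. At D0 it was well above background on 2 of 5 lung arrays, which gave at least 1.64-fold over liver and at least 1.65-fold over forestomach, from the higher of the probe's own signal and the lowest signal well above background per array, after loess and Aquantile. It passed the filter through lung alone, so its calls, 1 of the 64 members higher in lung than in liver and the 1 higher in lung than in forestomach, were made against tissues below background. Without mouse 1 neither was called, and the differences fell to 0.145 from liver and 0.0496 from forestomach. The fold bounds above were taken with mouse 1 included. Rpl39l, known from testis, lay between -4.96 and -1.84 in the D0 tissues, mostly not well above background in Cy5, while the reference was well above background on all 60 arrays.

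**Figure D4:**
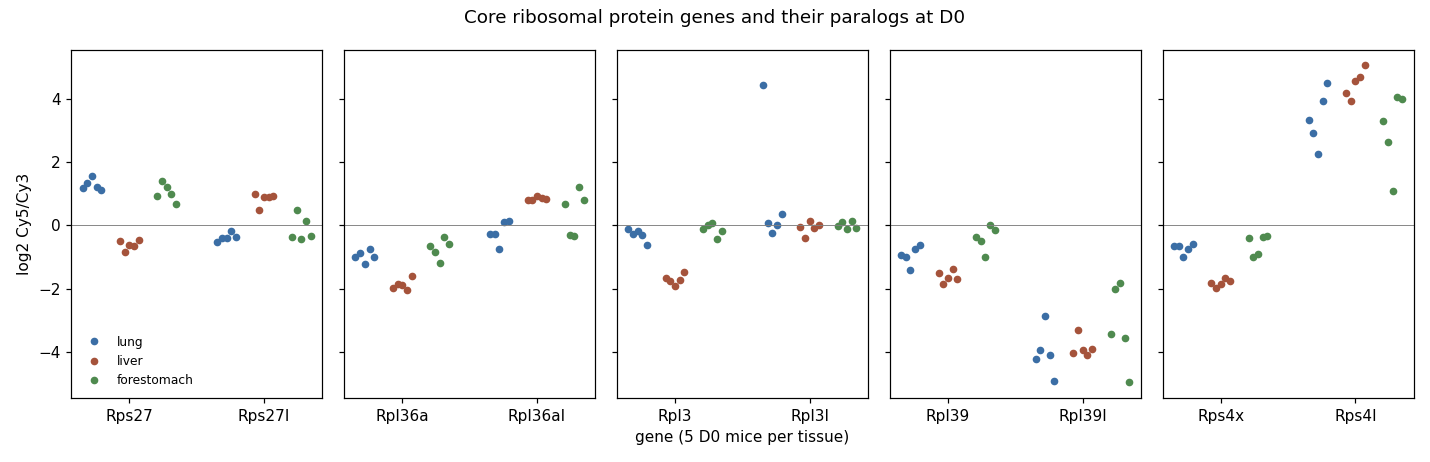
Log2 ratio of tissue to reference in the 5 D0 mice of each tissue for 5 core genes and their paralogs, 1 point per mouse. Under the loess scaling Rps27 and Rpl36a were lowest in liver and Rps27l and Rpl36al highest there by their means, with 1 scaling where Rpl36a differed by -0.0431 between forestomach and liver, Rps4l lay between 1.07 and 5.06, and Rpl3l reached 4.42 in the lung of mouse 1.

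Genes tied to the ribosome by function differed from the members in several cases. The ribosomal components Rack1 and Fau, named outside the symbol pattern, were 1.02 and 0.93 higher in lung than in liver. A list of 16 other mRNAs known to start with a TOP tract held mostly elongation and initiation factors. With loess 10 were called higher in lung than in liver and none lower, beside 25.4% and 19% of all probes, with a median of 0.604. With normexp 11 were called higher, in the deposited ratios 7, with the processed signals 3 and with median centring 1, and none lower. The shares of all probes called higher there were 25.1%, 24.1%, 32% and 21.3%. The medians of the list were 0.688, 0.530, 0.415 and -0.176. Among these mRNAs Tpt1 was 1.28 higher with loess and Eef1a1 was at 0.02, which was not called. Members with the tract searched above had a median lung-minus-liver difference of 1.04 (26 genes) and core members without it one of 1.05 (29 genes).

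The mitochondrial ribosomal proteins, which translate the messages of the mitochondrial genome, were mostly lower in lung than in liver under each of the 5 scalings. The counts of these lists stand beside the 25.4% of all probes called higher and 19% lower in lung than in liver, 18.8% and 14.5% in lung than in forestomach, and 21% and 18.2% in forestomach than in liver. Of 77 tested, none was called higher in lung than in liver and 57 were called lower, with a median of -0.871. In the other 4 scalings none was called higher and 47 to 55 lower, with medians of -1.12 to -0.785, beside 12.8% to 28.7% of all probes lower. Between lung and forestomach none was called higher and 28 lower with loess, and 2 higher and 1 lower with median centring, where the median was 0.249 and 26.5% and 3.41% of all probes were called. Between forestomach and liver 3 were called higher and 28 lower with loess (median -0.324), and none and 56 with median centring (median -1.36). With that scaling 9.23% of all probes were called higher in forestomach than in liver and 22.6% lower. Ribosome biogenesis factors gave 5 calls up and 5 down of 21 between lung and liver, 12 up and none down between forestomach and liver, and none up and 12 down between lung and forestomach. With median centring the last 2 became none up and 1 down, and 2 up and none down, beside the shares of all probes given above for that scaling. Fbl, the methyltransferase fibrillarin, was 1.59 lower in lung than in forestomach. Of 10 genes of RNA polymerase I, 5 were called higher in forestomach than in liver and 1 lower, and with median centring 2 and 1, with a median of -0.121. Of 13 genes of mTORC1 and its links to translation, 7 were called lower in lung than in liver and none higher. In the other scalings 3 (median centring) to 10 (processed signals) were lower, beside 12.8% to 28.7% of all probes. At most 1 was higher there, beside 21.3% to 32% of all probes. Of 6 tested genes of the Myc network 3 were higher in lung than in liver and 2 lower. Of 4 genes of p53 and its ribosomal link 2 were higher. Rpl7l1 and Rpl22l1 are close relatives of ribosomal protein genes outside the symbol pattern. Rpl7l1 was 1.51 lower in lung than in liver, and Rpl22l1 was at -0.11.

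No member was called at any dose of benzo(ghi)perylene in any tissue. In each of the 9 comparisons of D1, D2 or D3 with D0 by limma, 0 members and 0% of all probes passed an adjusted p of 0.05 with 1.5-fold. At D3 an unadjusted p under 0.05 was reached in lung by 6 of 79 members (1 up and 5 down), in liver by 7 of 78, all down, and in forestomach by 5 of 78 (3 up and 2 down), beside 4.81%, 12.1% and 1.504% of all probes. The slope on dose gave 0 members in each tissue, beside 0% (lung), 0.239% (liver) and 0% (forestomach) of all probes. Its unadjusted p was under 0.05 for 4, 12 and 7 members in lung, liver and forestomach, beside 4.78%, 14.8% and 2.36% of all probes.

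Lung and forestomach arrays shared slides, with 1 array of each dose and tissue on each, and liver had 3 slides of its own. With slide as a block the fit still called 0 members at D3, beside 0.0677% (lung), 0.0927% (liver) and 0% (forestomach) of all probes. The slope on dose with the block also gave 0 members, beside 0.306%, 2.61% and 0%. The lowest adjusted p of a member was then 0.0616 in lung, for Rps27l, and 0.0825 in liver, for Rps20. An unadjusted p under 0.05 was reached at D3 with the block by 27 members in lung, 34 in liver, all down, and 20 in forestomach, beside 15.6%, 17.9% and 6.42% of all probes. Each dose lay in its own column on every slide, so dose and column position cannot be told apart.

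None of these shifts of the group was tested as a whole. In liver 74 of the 78 members were lower at D3 than at D0, beside 50.1% of all probes, with a median change of -0.12 against -0.000443. At D2 it was 97.4% of the members with a median of -0.118, and at D1 65.4% with a median of -0.0206. The per-array medians at D0 were -0.99, -1.16, -1.08, -0.90 and -1.05 in mice 1 to 5 and at D3 -1.08, -1.14, -1.14, -1.26 and -1.30 in mice 16 to 20, so the groups overlapped. Within the 3 liver slides the median change was -0.0959, -0.109 and -0.161. The slides themselves averaged -1.001, -1.09 and -1.23 over their 6 or 7 arrays. The 43 other bright genes changed by a median of -0.115 in liver.

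In lung the median change at D3 was -0.0755, with 75.9% of members lower, and the bright genes changed by -0.107. In forestomach it was -0.133 at D1, -0.123 at D2 and -0.0569 at D3, with 79.5%, 83.3% and 57.7% of members lower, and the bright genes changed by -0.280 at D3. The D3 median turned positive with median centring in each tissue, in the order lung, liver, forestomach to 0.348, 0.0293 and 0.805, where that scaling moved all tested probes by 0.234, 0.0771 and 0.213. Relative to all probes it thus kept its sign in liver alone. In forestomach it was also positive in the processed signals (0.0517), in the deposited ratios (0.0828) and with the median over all passing probes of a gene (0.0406).

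**Figure D5:**
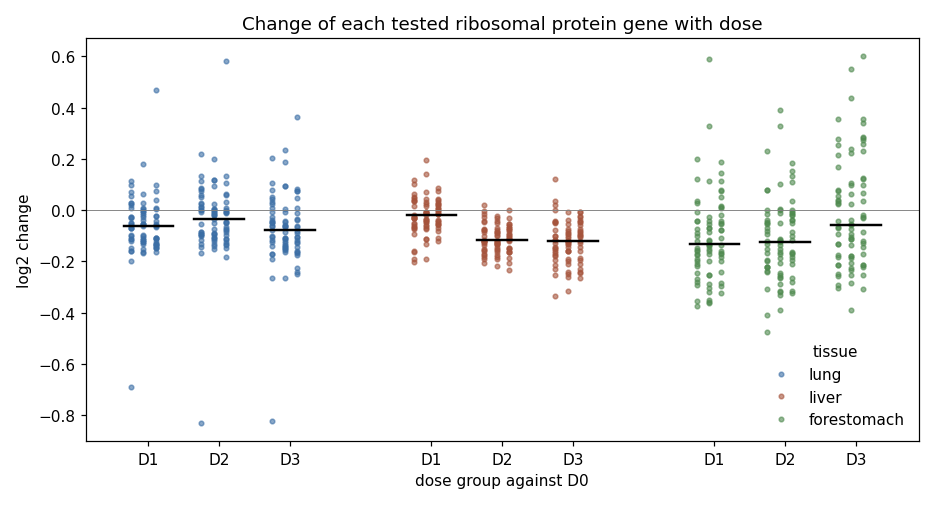
Log2 change against D0 of each tested ribosomal protein gene at D1, D2 and D3 in lung (79 genes), liver (78) and forestomach (78), 1 point per gene with a black line at the median, loess scaling. The medians lay between -0.133 and -0.0206, no gene was called, and with median centring the D3 medians were above 0.

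The members with the largest changes at D3 differed between tissues. In liver these were Rps14 (-0.33 ± 0.13), Rpl22 (-0.32 ± 0.11), an RNA-binding protein of the large subunit, and Rps20 (-0.26 ± 0.09), with limma adjusted p of 0.328, 0.242 and 0.257. Rpl22 was at -1.47, -1.42, -1.20, -1.38 and -1.07 in the livers of mice 1 to 5 and at -1.57, -1.56, -1.56, -1.67 and -1.76 in those of mice 16 to 20. These 3 were chosen as the lowest. All 5 D3 values lay below the D0 values for each of them, as they did for 8 of the 78 members, beside 1.81% of all probes. The upper end was Rpl23a (0.12), Rps19 (0.04) and Rpl10 (0.02).

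In lung, Rpl3l (-0.82, and 0.0495 without D0 mouse 1) and Rps20 (-0.26) were among the lowest, and the highest were Rps4l (0.36), Rps27l (0.23) and Rps27a (0.20). Rps27l was at -0.52, -0.41, -0.39, -0.17 and -0.37 in the lungs of D0 mice 1 to 5 and at -0.22, -0.11, -0.24, 0.07 and -0.19 in those of D3 mice 16 to 20. The groups overlapped. Its change of 0.23 ± 0.10 had an unadjusted limma p of 0.0259 and an adjusted p of 0.974. Within slides 1 to 5, each with 1 D0 and 1 D3 array, it was higher at D3 by 0.306, 0.149, 0.235, 0.300 and 0.179, and with the slide block its limma adjusted p was 0.0616. With loess all 5 slides had the D3 array higher for 2 of 79 members, beside 7.39% of all probes, and lower for 21, beside 5.63%.

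In forestomach the lowest changes were those of Rpl41 (-0.39 ± 0.23), the shortest ribosomal protein, Rplp0 (-0.31) and Rps14 (-0.30), and the highest those of Rpl5 (0.60 ± 0.26), Rpl36al (0.55 ± 0.25) and Rps4l (0.44), each with a limma adjusted p near 1. Rpl5 was at -0.27, -1.16, -1.33, 0.10 and -0.08 in the forestomachs of D0 mice 1 to 5 and at 0.03, 0.14, 0.14, 0.13 and -0.16 in those of D3 mice 16 to 20. The D0 mice were spread and the D3 mice close together, with overlap. By the limma test of the difference between tissues in the change at D3, 0 members were called in lung against liver, lung against forestomach and forestomach against liver, beside 0% of all probes in each. An unadjusted p under 0.05 was reached there by 0, 3 and 10 of 79 members, beside 2.96%, 2.06% and 4.26% of all probes.

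The spread of the members between mice was described by the SD within dose groups. The median SD within dose groups in lung, liver and forestomach was 0.155, 0.170 and 0.211, against 0.198, 0.185 and 0.293 over all tested probes. Rps4l, a dim probe, was the most variable in liver (0.440) and forestomach (1.04) and stood at 0.719 in lung, behind Rpl3l (0.999). The paralogs Rps27l (0.130) and Rpl36al (0.107) were below the median in liver, and in forestomach Rpl5 (0.431), Rpl36al (0.418) and Rps27l (0.415) came next. The further probes of the members gave the same sign as the brightest probe in 70 of 83 for lung minus liver, 73 of 83 for lung minus forestomach and 82 of 83 for forestomach minus liver, and differed from it by at most 0.5 in 57, 65 and 69.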

How the data were processed

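Scanner files of the 60 arrays (from Agilent's Feature Extraction 10.7.3.1, with mm9 named as the array's genome per the file headers) held median intensities of both dyes. The deposited series table held the authors' normalized log2 ratios, and it correlated with the values computed here at 0.992 to 0.999 over arrays. The study's methods give LOWESS on median signals without background subtraction, MAANOVA, FDR of 0.05 and 1.5-fold. Here limma 3.58.1 in R 4.3.3 fitted loess within arrays on the median intensities without background subtraction, with weight 0 for control spots. Outlier spots (0.460% of spot values) were left out and the spots of a probe averaged, which left 55681 probes. Probes were named through RefSeq accessions (47.4% had a symbol). lmFit and eBayes were used in place of the study's Fs test: dose groups were fitted within a tissue, tissues in one model of 12 groups, with Benjamini-Hochberg adjustment over all probes tested. The slope on dose and the differences of changes between tissues needed no minimum change. No depth applies to arrays, so their number limits the precision, beside the scaling and the background. No spot was saturated.

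The mouse number marked the same animal in each tissue. The deviations of 1 animal from its groups correlated with a median of 0.209 between its lung and forestomach, which shared a slide, 0.0539 between lung and liver and -0.00147 between forestomach and liver.

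The members and gene lists were chosen with earlier results of these data known. The genes named were the 3 at each end of each tissue's D0 level and of each comparison, the paralogs beside their core gene and 9 genes by role. The rule also took in every called member, and these are given as counts. A few genes that the rule or the lists took in are not reported here by name. The bright genes, Fbl, Tpt1 and Eef1a1 were picked out after their values were seen. Alternatives were 5 other scalings, filters, variance model, probe choice, slide and mouse blocks and each mouse left out. The other scalings of the gene lists and of the shares of all probes, the bright probes without a symbol and the changes within lung slides were added after the data were seen. The fits were tested on simulated data. The near-identical H2a genes and pseudogene copies of ribosomal protein genes may share signal with a probe.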

Additional observations from a re-analysis of the deposited data

Results flagged for a closer look

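In 11 of 152 groups of 5 mice looked at, among the named genes, 1 value lay far from the other 4 by Dixon's test, which marks about 1 in 20 groups by chance. In lung at D0 these were Rpl3l in mouse 1 (4.42) and, in mouse 3, Rps6 (-0.368), Rpl5 (-1.60) and Rpl41 (0.781). In lung at D3 they were Rps12 (0.226), Rplp1 (0.263) and Rpl22 (-0.0483) in mouse 19 and Rps19 (-0.641) in mouse 20, the lung with high Alb. In liver they were Rps27l in D0 mouse 2 (0.474) and Rpl5 in D3 mouse 17 (-1.37). In forestomach it was Rps27l in D3 mouse 19 (0.328).

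For 2 of the genes looked at, all 5 D3 mice lay above the D0 mean in one tissue and all 5 below it in another. Rpl36a changed by -0.230 in liver and 0.216 in forestomach, and the difference of these changes was 0.45 ± 0.17 (SE, limma adjusted p = 1). Rps27a changed by 0.204 in lung and -0.240 in liver, a difference of 0.44 ± 0.25 (limma adjusted p = 1). Neither passed the test.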

How the results depend on the processing

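The tissue differences depended on the scaling. The cause was not tested. Between lung and liver 21 members were called with the processed signals (17 higher and 4 lower) and 4 with median centring (1 and 3), and the median was 1.16 with normexp, 0.281 with processed signals, 0.599 in the deposited ratios, -0.0243 with median centring and 0.886 with the median over all passing probes of a gene. Between lung and forestomach the calls were 8, 8 and 0 with processed signals, deposited ratios and median centring and 42 with no minimum change, and the medians of these scalings were -0.0818, -0.172 and -0.0790. Between forestomach and liver they were 27 with processed signals (24 higher and 3 lower) and 3 with median centring, all lower, against 73 and 2 with loess, and the medians were 0.409, 0.725 and 0.0448. Relative to the 43 bright genes, an alternative chosen after seeing the data, the medians were 0.000420 for lung minus liver, 1.09 for forestomach minus liver, and at D3 0.0315 in lung and 0.226 in forestomach. Relative to the 210 bright probes without a symbol, chosen likewise, the tissue medians were 0.212, 0.218 and, for lung minus forestomach, 0.00625. The D3 median was 0.348 in lung, 0.0293 in liver and 0.805 in forestomach with median centring, -0.161 within slide 5 in lung, and 0.0517 and 0.0828 in forestomach with processed signals and deposited ratios.

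With each D0 mouse left out, 64 to 68 members were called between lung and liver (medians 0.980 to 1.05), 11 to 19 between lung and forestomach (-0.314 to -0.263) and 74 to 77 between forestomach and liver (1.21 to 1.29). The D3 medians without 1 mouse were -0.108 to -0.0405 in lung, -0.146 to -0.0916 in liver and -0.0802 to -0.0197 in forestomach, with 0 calls throughout. With the mouse as a replicate block the calls were 67, 17 and 75 and the medians 1.02, -0.305 and 1.27, and no count of calls changed.

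Single genes turned direction as follows. With median centring lung minus liver was -0.0271 for Rplp0, -0.340 for Rplp1, -0.0562 for Rpsa, -0.0945 for Rpl5, -0.298 for Rps6 and -0.196 for Rps27a, lung minus forestomach was 0.170 for Rps27l, 0.0591 for Rpl5 and 0.263 for Rps19, and forestomach minus liver was -0.0818 for Rplp1, -0.154 for Rpl5, -0.264 for Rps6 and -0.0877 for Rps27a. At D3 it gave 0.173 for Rps20 in lung, and in forestomach 0.574 for Rpl41, 0.655 for Rplp0, 0.672 for Rps14 and 0.719 for Rps27l. With processed signals lung minus liver was -0.0241 for Rplp1 and -0.0387 for Rpsa, lung minus forestomach -0.358 for Rps4l, 0.0389 for Rps6 and 0.0816 for Rps27a, and forestomach minus liver -0.0263 for Rpsa. Rps19 was higher in lung than in forestomach by 0.0361 in the deposited ratios, by 0.0845 over the 4 dose groups and by 0.00482 without mouse 4. With the median over probes the D3 change was -0.0888 for Rpl10 in liver and 0.102 for Rplp0 in forestomach, and with the slide block -0.0143 for Rps27l in liver. Leaving out 1 mouse gave 0.0495 for Rpl3l in lung at D3 (D0 mouse 1), and in liver at D3 -0.0372 for Rps19 (D0 mouse 2), -0.0942, -0.0389, -0.0108, -0.00501 and -0.0605 for Rpl10 (D0 mice 2 and 5, D3 mice 16, 17 and 18) and -0.0893, -0.0251 and -0.00226 for Rps27l (D0 mouse 2, D3 mice 17 and 18). In forestomach at D3 it gave 0.0806 for Rps27l (D0 mouse 2) and -0.0475 for Rps4l (D0 mouse 3), and forestomach minus liver was -0.0249 for Rpl3l without mouse 2. Over all mice left out in turn, the farthest values the other way were -1.12 for Rpl3l in lung at D3, 0.0711 for Rps19, 0.134 for Rpl10 and 0.0374 for Rps27l in liver at D3, 0.754 for Rps4l and -0.193 for Rps27l in forestomach at D3, -0.173 for Rps19 in lung minus forestomach and 0.175 for Rpl3l in forestomach minus liver.

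Liver had its own slides, so slide and tissue cannot be told apart there. On the slides shared by lung and forestomach, lung lay in row 1 and forestomach in row 2 throughout. Row position and tissue thus cannot be told apart between these tissues. Log ratios near background limit Rpl3l, Rpl10l and Rpl39l.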
